A study of Mus musculus with 12 samples.

Results

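The proteasome genes of the mouse adrenal gland are described here from RNA sequencing of whole glands lacking the cholesterol exporter gene Abcg1 in the cortex. The members are the 50 gene IDs, of 24421 in the deposited table, whose symbol starts with Psma, Psmb, Psmc, Psmd, Psme, Psmf or Psmg and a number. The naming pattern alone decided which IDs belong. Of these, 48 encode a subunit, activator, inhibitor or assembly chaperone of the proteasome. The other members are Psmc3ip, which encodes a meiotic recombination factor named for its binding to a base ATPase, and Psme2b, a copy of the activator gene Psme2.

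The study holds 12 libraries, 4 each from Abcg1 cKO, Abca1 cKO and control mice, all females of 2 months on a mixed sv129-C57BL/6 background. Abcg1 cKO and Abca1 cKO mice carried a Cre recombinase expressed from the aldosterone synthase gene Cyp11b2, which acts in cortical cells and leaves the medulla, vessels and immune cells of the gland unrecombined. Abcg1 cKO mice also carried conditional alleles of Abcg1, with a single exon removed, and Abca1 cKO mice conditional alleles of Abca1, a related exporter. By the series' design text the controls carried Cre only, whereas the methods also allow littermates with a conditional allele. Libraries were polyA-selected from whole glands cleaned of fat, so transcripts of all cell types of the gland are counted together.

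For each gene the authors deposited 1 mean normalized count over the 4 Abcg1 cKO libraries and 1 over the other 8 libraries, control and Abca1 cKO, which are called the merged set below. A normalized count is the number of reads on a gene divided by a size factor of its library. The merged mean cannot be split into control and Abca1 cKO. No value of a single animal was used, so no spread between replicates and no test stands beside any difference below, and whether a difference exceeds the spread between mice is not known. The raw depth per library is unknown. Differences are log2 ratios of the means after adding 1 to each, Abcg1 cKO over the merged set, so a positive value is a higher mean in Abcg1 cKO. A fold of 1.2 in either direction, which the study used together with a cutoff on the adjusted p-value, corresponds to 0.26 on this scale. Here the fold is used alone, so genes counted past it are not the study's list of changed genes. The mean of Abcg1 itself, counted over all its exons, was 250 in Abcg1 cKO and 305 in the merged set.

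The proteasome degrades proteins tagged with ubiquitin. Its 20S core is a barrel of stacked rings, with outer rings of alpha subunits that gate the entrance and inner rings of beta subunits, of which Psmb5, Psmb6 and Psmb7 carry the chymotrypsin-like, caspase-like and trypsin-like sites. The 19S regulatory particle caps the core to make the 26S proteasome. Its base holds a ring of ATPases that unfold substrates, and its lid holds the enzyme that removes ubiquitin. Under interferon gamma and in immune cells, Psmb8, Psmb9 and Psmb10 replace the constitutive catalytic subunits and form the immunoproteasome, which shapes the peptides presented on MHC class I. In mammalian cells with impaired proteasomes the transcription factor encoded by Nfe2l1 raises the subunit genes together, by way of antioxidant response elements in their promoters.

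Proteasome transcripts differed little between the groups. The members made up 0.611% of all normalized counts in Abcg1 cKO and 0.622% in the merged set. Of the 50 members, 49 had a mean of 10 or more over the 12 libraries, and only Psmb11, the subunit of the thymus, did not: it was listed at 0 in Abcg1 cKO and at 0.13 in the merged set. Of the 49 members, 1 lay past a fold of 1.2, Psma8, against 22.6% of the 14305 genes with a mean of 10 or more. Most members are abundant, however, and among the 3857 genes with a mean of 1000 to 7000 only 8.69% lay past this fold. None of the 38 members at that level did. At a fold of 1.1, 5 of the 49 members lay on the higher side and 3 on the lower, beside 22.0% and 23.8% of all genes (45.8% in either direction). These shares are not matched for level. The share at 1.1 was not counted for genes with a mean of 1000 to 7000, whose log2 ratios vary less (SD 0.17, against 0.35 over all genes). A higher mean in Abcg1 cKO was found for 20 of the 49, beside 50.3% of all genes and 64.5% of those with a mean of 1000 to 7000. Past a fold of 1.2, 1493 genes were on the higher and 1745 on the lower side, and 1182 and 2195 with both groups scaled to equal total counts.

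The members with a mean of 1000 to 7000 had log2 ratios from -0.13 to 0.20 with a median of 0.00, and the 5th to 95th percentiles of all genes at that level ran from -0.18 to 0.30 with a median of 0.04. The SD over genes was 0.09 for these members and 0.17 for all genes of that level. The proteasome genes thus occupied the middle of the distribution, slightly below its centre.

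**Figure D1:**
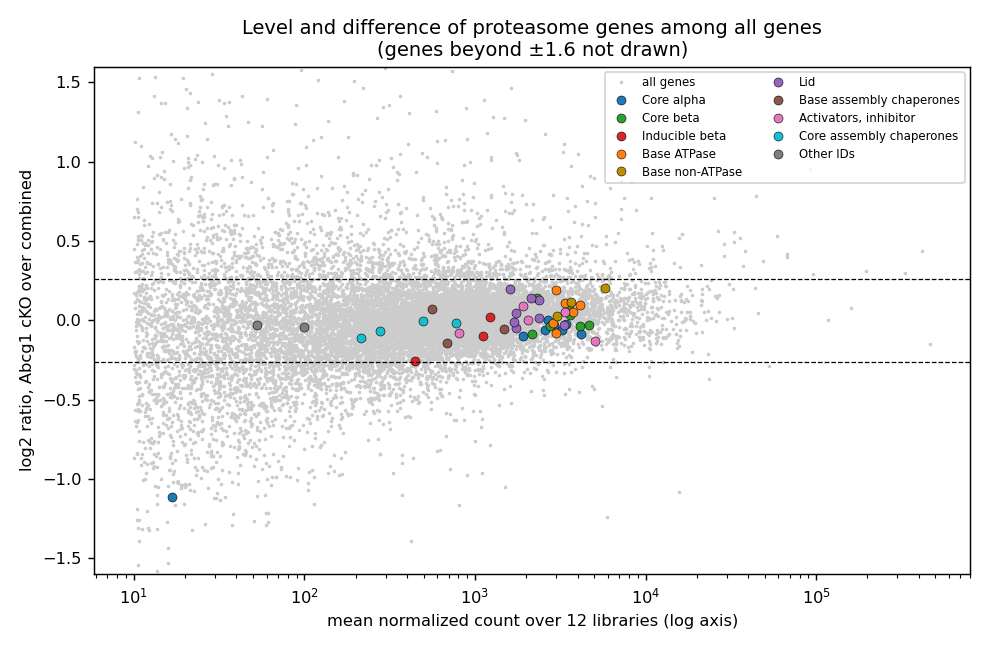
Log2 ratio of mean normalized counts (vertical axis, Abcg1 cKO over the merged set) against the mean normalized count over 12 libraries (horizontal log axis) for all genes with a mean of 10 or more (grey) and proteasome genes (coloured by part of the complex). Dashed lines mark a fold of 1.2, and Psma8, at a mean of 16.7, is the only proteasome gene outside them.

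Within this narrow range the parts of the complex were ordered. Core alpha genes sat below 0, and the genes of the regulatory particle lay on both sides near the centre of all genes at that level. The core beta genes lay on both sides of 0. Of the 17 genes of the 19S particle, 12 had a higher mean in Abcg1 cKO (median log2 ratio 0.05), and of the 14 constitutive genes of the 20S core, 3 did (median -0.03), beside 64.5% of all genes with a mean of 1000 to 7000, whose median was 0.04. The regulatory particle was thus near this background, and the core below it. The medians differed by 0.09, a difference that does not depend on how the groups are scaled to each other. The ranges overlapped: 4 of 17 regulatory genes lay above the highest core gene, and 3 of 14 core genes below the lowest regulatory gene. The position relative to 0 does depend on scaling. Total counts differed by 0.04 on the log2 scale (18889571 in Abcg1 cKO and 18311615 in the merged set), and with equal totals every log2 ratio is lower by that amount. The median was then 0.01 for the 19S genes, with 9 above 0, and -0.08 for the 20S genes, with 2 above 0.

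**Figure D2:**
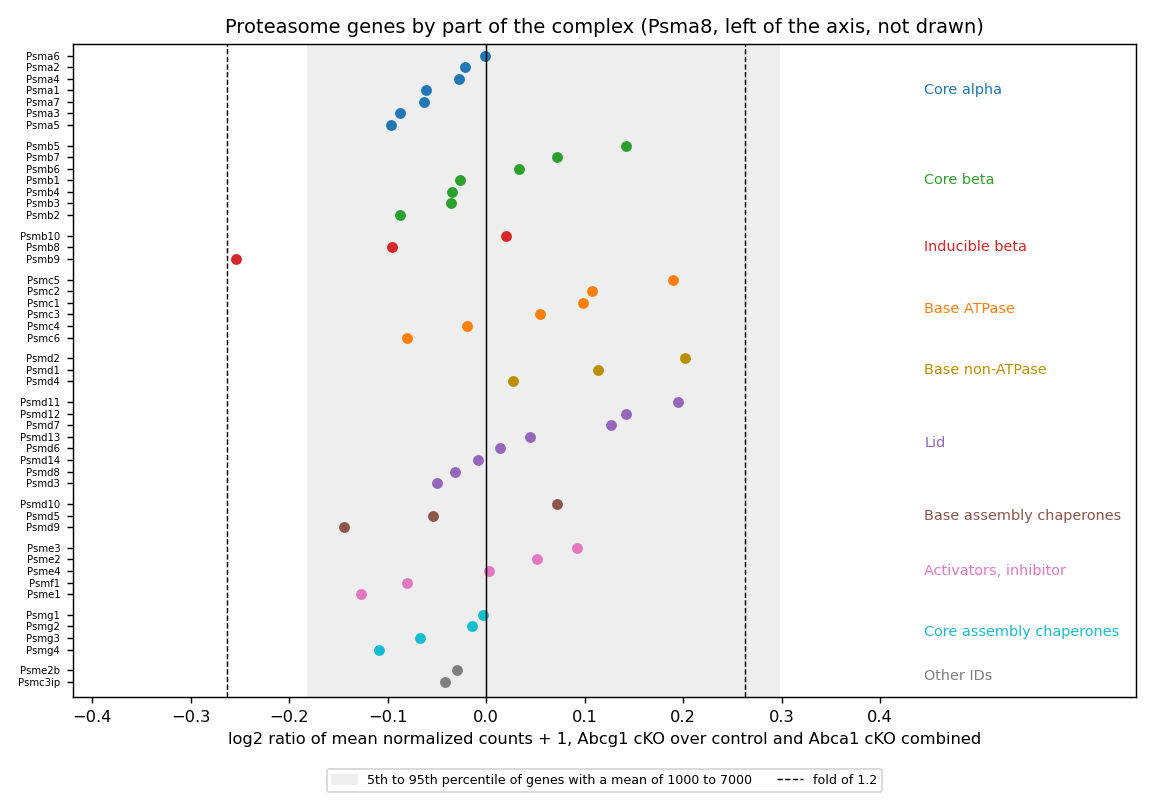
Log2 ratio of mean normalized counts for each proteasome gene (Abcg1 cKO over the merged set), grouped by part of the complex, with 1 point per gene and no error bar because values of single mice were not used. The shaded band spans the 5th to 95th percentile of genes with a mean of 1000 to 7000, from -0.18 to 0.30, and core alpha genes lie at or left of 0 while Psmd2, Psmd11 and Psmc5 lie farthest right. Psma8, at -1.11, is not drawn.

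All 7 constitutive core alpha genes had a lower mean in Abcg1 cKO, with log2 ratios from -0.10 to -0.0009. Of all genes with a mean of 1000 to 7000, 64.5% had a higher mean. The lowest was Psma5, on chromosome 3 of mm10 (108256926 to 108279974), at 1823 normalized counts in Abcg1 cKO and 1950 in the merged set. Psma3 had 4044 in Abcg1 cKO and 4296 in the merged set (log2 ratio -0.09). Both encode subunits of the outer ring, and their means differed by about 6% (-6.47% and -5.88%). Psma6, at the other end of the part, had nearly the same mean in both groups, with 2679 in Abcg1 cKO and 2680 in the merged set.

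Psma8 encodes a variant alpha subunit of the testis, where it takes the place of Psma7 in germ cells, and it was the only member past the fold. It reached the minimum mean of 10 only through the merged set, where it is higher, so its call says little about the members. It lies on chromosome 18 (14706151 to 14762301). Its means were 8.99 in Abcg1 cKO and 20.6 in the merged set (log2 ratio -1.11), far below Psma7, at 3162 in Abcg1 cKO and 3303 in the merged set. Of all genes with a mean of 10 or more, 0.657% had a lower log2 ratio. At a fold of 1.5 it was again the only member, beside 5.85% of all genes. At so low a level a single library can carry a mean, and this was not examined.

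Of the 7 core beta genes, 3 had a higher mean in Abcg1 cKO, beside 64.5% of all genes with a mean of 1000 to 7000. These were the catalytic genes Psmb5, Psmb6 and Psmb7. The non-catalytic genes Psmb1, Psmb2, Psmb3 and Psmb4 each had a lower mean. The gap between them was narrow, from -0.03 for Psmb1 to 0.03 for Psmb6, and a link with catalytic role was not tested. With equal totals Psmb6 moved to the lower side, at -0.01. Psmb5, on chromosome 14 (54614119 to 54618022), had 2453 normalized counts in Abcg1 cKO and 2223 in the merged set (log2 ratio 0.14). Psmb7 had 3671 in Abcg1 cKO and 3494 in the merged set (0.07). Psmb6 had 3677 in Abcg1 cKO and 3594 in the merged set (0.03). Psmb5 was the highest of the 14 core genes, and Psmb2, at 2087 in Abcg1 cKO and 2218 in the merged set (-0.09), the lowest of the beta genes. The non-catalytic genes ran from -0.09 to -0.03.

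In the base of the regulatory particle 7 of 9 genes had a higher mean in Abcg1 cKO, near the 64.5% of all genes at that level, with a median log2 ratio of 0.10 (0.05 with equal totals, 6 of 9 above 0). Psmd2, which encodes the large scaffold that docks ubiquitin shuttles, had the highest log2 ratio of all members at 0.20. It lies on chromosome 16 (20651652 to 20663414) and had 6333 normalized counts in Abcg1 cKO and 5505 in the merged set. Its log2 ratio was at percentile 85.6 of all genes with a mean of 10 or more, which is within the usual range. Psmc5, an ATPase of the ring on chromosome 11 (106256154 to 106263120), had 3254 in Abcg1 cKO and 2853 in the merged set (0.19). Psmd1, the other large scaffold, had 3831 in Abcg1 cKO and 3541 in the merged set (0.11). Psmd4, an intrinsic ubiquitin receptor, was close to 0 at 0.03 and changed side with equal totals (-0.02). The ATPases were not uniform: Psmc6, which belongs to the same ring, had the lowest log2 ratio of the 19S particle, at 2885 in Abcg1 cKO and 3051 in the merged set (-0.08).

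In the lid 5 of 8 genes had a higher mean in Abcg1 cKO, like the 64.5% of all genes at that level, with a median log2 ratio of 0.03 that changed side with equal totals (-0.02, 3 of 8 above 0). Psmd11, a scaffold subunit that clamps the lid to the core, stood highest at 1746 normalized counts in Abcg1 cKO and 1525 in the merged set (log2 ratio 0.19). It lies on chromosome 11 (80428615 to 80473248). Psmd12 and Psmd7 followed at 0.14 and 0.13. Psmd14, which encodes the enzyme that removes ubiquitin chains from substrates, had almost the same mean in both groups, with 1697 in Abcg1 cKO and 1707 in the merged set (-0.0085). The lowest lid gene was Psmd3, at 1692 in Abcg1 cKO and 1752 in the merged set (-0.05).

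**Figure D3:**
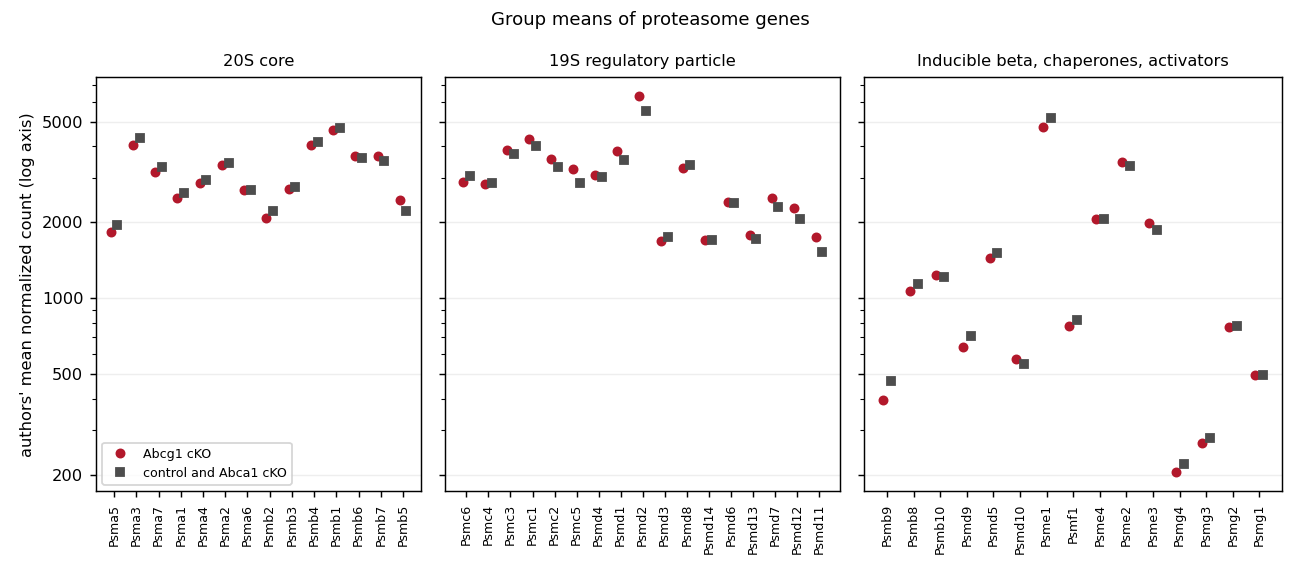
The authors' mean normalized count (vertical log axis) of each proteasome gene in Abcg1 cKO (red circles) and in the merged set of control and Abca1 cKO (grey squares), for the 20S core, the 19S particle and the remaining members, without Psma8 and Psmb11. Paired symbols nearly coincide for most genes, and the widest gaps are those of Psmb9 (395 in Abcg1 cKO and 472 in the merged set) and Psmd2 (6333 in Abcg1 cKO and 5505 in the merged set).

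To show what the control regions of these genes hold, 120 bases before the annotated start are printed for the 3 regulatory genes with the highest log2 ratios, for the catalytic genes Psmb5 and Psmb6, and for the core alpha gene with the lowest. They come from RefSeq promoter windows of GRCm38.p6, the build of mm10. Capitals mark the core of an antioxidant response element (TGACNNNGC) or a GC box (GGGCGG), the site of Sp1-type factors, on either strand.
Psmd2, chr16:20651532-20651651, plus strand: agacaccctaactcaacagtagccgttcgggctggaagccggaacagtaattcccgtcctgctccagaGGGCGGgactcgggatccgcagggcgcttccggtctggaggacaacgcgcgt
Psmd11, chr11:80428495-80428614, plus strand: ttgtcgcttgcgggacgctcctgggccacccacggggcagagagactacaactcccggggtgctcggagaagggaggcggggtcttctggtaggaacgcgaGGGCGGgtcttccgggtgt
Psmc5, chr11:106256034-106256153, plus strand: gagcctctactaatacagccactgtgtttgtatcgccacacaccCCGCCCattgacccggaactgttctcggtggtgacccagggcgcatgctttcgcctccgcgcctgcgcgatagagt
Psmb5, chr14:54618023-54618142, minus strand: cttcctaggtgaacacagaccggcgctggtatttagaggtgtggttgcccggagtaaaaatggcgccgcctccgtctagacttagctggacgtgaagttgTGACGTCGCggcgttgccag
Psmb6, chr11:70525237-70525356, plus strand: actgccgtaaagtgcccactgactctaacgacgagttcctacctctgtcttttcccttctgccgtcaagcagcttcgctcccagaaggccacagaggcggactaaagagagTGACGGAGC
Psma5, chr3:108256806-108256925, plus strand: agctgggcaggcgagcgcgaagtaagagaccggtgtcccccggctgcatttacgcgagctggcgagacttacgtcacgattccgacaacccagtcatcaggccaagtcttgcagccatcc

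The 3 regulatory stretches each hold 1 GC box, Psmb5 and Psmb6 each hold 1 antioxidant response element core, and the Psma5 stretch holds neither set of letters. Over the full windows, which run from 250 bases before to 50 after the start, 42 members had a sequence. The GC box was found in 10 of the 14 regulatory particle windows and in 5 of the 11 constitutive core windows, beside 35.7% of all 32851 windows. The antioxidant response element core was found in 2 of 14 regulatory and 2 of 11 core windows, beside 12.4% of all windows. The CCAAT box (CCAAT), searched on both strands like the others, was found in 4 of 14 regulatory and 5 of 11 core windows, beside 37.4% of all. The core of the interferon-stimulated response element was found in 5 of 42 member windows, beside 3.44% of all, and that of the gamma-activated site (TTCNNNGAA) in 3 of 42, beside 8.3%. Of the 5 windows of inducible beta and PA28 genes, Psme1 held the first and Psmb8 the second. The antioxidant response element core and the GC box can share letters, as can the interferon motifs, and a match is a description of the sequence only.

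Of the immunoproteasome genes, Psmb8 and Psmb9 were lower relative to their constitutive partners in Abcg1 cKO, and Psmb10 only slightly so. Psmb8 and Psmb9 lie on chromosome 17 in the MHC region, at 34197721 to 34201454 and 34181987 to 34187764, beside the peptide transporter genes Tap1 and Tap2. Psmb9 had 395 normalized counts in Abcg1 cKO and 472 in the merged set. Its log2 ratio of -0.25 was the lowest after Psma8 among the 49 members and just inside the fold of 1.2, and it passed the fold with equal totals (-0.30). Psmb8 had 1071 in Abcg1 cKO and 1144 in the merged set (-0.10). Psmb10, on chromosome 8, had 1233 in Abcg1 cKO and 1216 in the merged set, a log2 ratio of 0.02 that changed side with equal totals (-0.03).

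Each inducible gene replaces a known partner, and the ratio within a pair does not depend on scaling between groups. The count of Psmb8 was 43.6% of that of Psmb5 in Abcg1 cKO and 51.5% in the merged set, a log2 difference of -0.24. The count of Psmb9 was 10.7% of that of Psmb6 in Abcg1 cKO and 13.1% in the merged set (-0.29). For Psmb10 against Psmb7 the shares were 33.6% in Abcg1 cKO and 34.8% in the merged set (-0.05). The share was thus lower in Abcg1 cKO in all 3 pairs, but only slightly for Psmb10. The SD of log2 ratios over single genes with a mean of 1000 to 7000 was 0.17. That is not the spread of a difference between 2 genes, and Psmb9, at a mean of 446, lies below that level. How usual such differences are between any pair of genes was not tested. For Psmb8 and Psmb5, as for Psmb9 and Psmb6, the inducible gene had a lower mean and the constitutive gene a higher mean in Abcg1 cKO. These shares compare read counts and not molecules, since the genes differ in length. Per kilobase of main transcript, Psmb8 stood at 24.1% of Psmb5, Psmb9 at 6.34% of Psmb6 and Psmb10 at 29.7% of Psmb7 in Abcg1 cKO, and at 28.4%, 7.75% and 30.8% in the merged set. The levels per kilobase depend on the transcript model (11.6% and 67.4% for the Psmb8 and Psmb10 pairs in Abcg1 cKO with all annotated exons), whereas the difference between the groups does not.

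**Figure D4:**
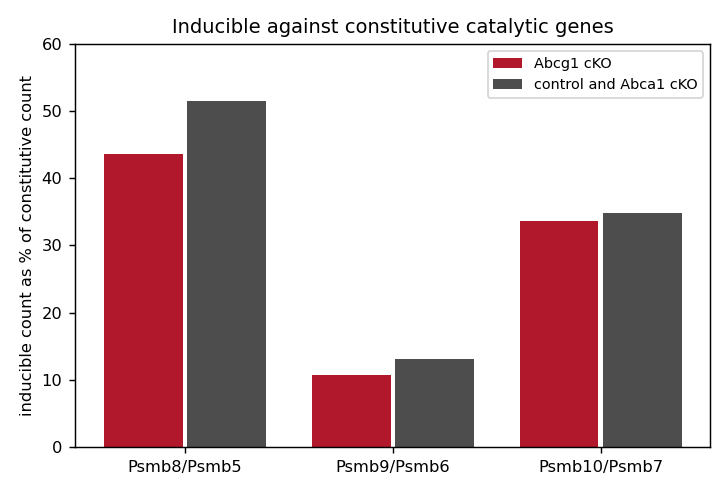
Normalized count of each inducible catalytic gene as a percentage of its constitutive partner (vertical axis), in Abcg1 cKO (red) and in the merged set of control and Abca1 cKO (grey). The Abcg1 cKO bar is the lower of each pair, at 43.6% against 51.5% for Psmb8 over Psmb5, and there is no error bar because values of single mice were not used.

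Psmb8, Psmb9 and Psmb10 are abundant in leukocytes. Among markers of those cells, lymphocyte markers of low count stood lower in Abcg1 cKO, while most macrophage and myeloid markers lay within the fold. Of 9 measured lymphocyte markers 7 had a mean of 10 or more, of which 5 lay past the fold on the lower side (12.2% of all genes did) and none on the higher side. Several of them reached the minimum mean only through the merged set, where they are higher, so their count says little. The summed level of all 9 was 130 in Abcg1 cKO and 181 in the merged set, and among them Cd79a, of the B-cell receptor, had a log2 ratio of -1.16. Of 10 macrophage and myeloid markers, 1 lay past the fold on the lower side, Cd68 at -0.30, near the 12.2% of all genes. Their summed level was 17044 in Abcg1 cKO and 17623 in the merged set. The part of these cells in the immunoproteasome values was not tested. In bulk tissue, fewer cells of a type and less RNA per cell cannot be told apart.

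Genes that share a pathway with the immunoproteasome did not all stand on the same side. Of 13 antigen processing and interferon gamma response genes, 1 lay past the fold on the higher side (10.4% of all genes did), H2-K1 at 0.34, and 4 on the lower side (12.2% did), with a median of 0.05. Nlrc5 and Irf1, transcription factors that drive MHC class I and the inducible subunits, had log2 ratios of -0.41 and -0.37, and Ciita and Cd74, of the MHC class II pathway, -0.30 and -0.29. The class I genes B2m and H2-D1 stood at 0.25 and 0.21. Tap1, the neighbour of Psmb9, had 883 normalized counts in Abcg1 cKO and 917 in the merged set (-0.05), and Tap2 had 1383 in Abcg1 cKO and 1333 in the merged set (0.05).

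The activator genes differed among themselves. Psme1 and Psme2, neighbours on chromosome 14 (55578123 to 55581529 and 55587441 to 55591113), encode the alpha and beta subunits of the interferon-inducible PA28 cap. Psme1 had 4757 normalized counts in Abcg1 cKO and 5196 in the merged set (log2 ratio -0.13), while Psme2 had 3461 in Abcg1 cKO and 3339 in the merged set (0.05). The count of Psme1 was 137% of that of Psme2 in Abcg1 cKO and 156% in the merged set. The copy Psme2b, on chromosome 11, had a log2 ratio of -0.03. Since it is nearly identical to Psme2 and only uniquely mapped reads were counted, the division of reads between these genes is uncertain. Psme3, which encodes the nuclear activator of the same family, had 1989 in Abcg1 cKO and 1866 in the merged set (0.09). Psme4, the large activator PA200, stood at 0.0031 and Psmf1, a proteasome-binding protein first described as an inhibitor, at -0.08; Psme4 changed side with equal totals (-0.04).

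Of the 7 assembly chaperones 1 was above 0, beside 50.3% of all genes, and none lay past the fold, beside 22.6%. The chaperones of the core, Psmg1 to Psmg4, ran from -0.11 for Psmg4, at 204 normalized counts in Abcg1 cKO and 220 in the merged set, to -0.0038 for Psmg1, at 495 in Abcg1 cKO and 497 in the merged set. Of the base chaperones, Psmd9 was the lowest, at 643 in Abcg1 cKO and 711 in the merged set (-0.14). Psmd10, known as gankyrin, was the only chaperone above 0, at 577 in Abcg1 cKO and 549 in the merged set (0.07). Psmc3ip, which is not part of the proteasome, stood at -0.04.

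Compared per kilobase of main transcript, the levels of the members spanned a wide range that both groups shared. Among the 26S subunits the highest was Psmb6, at 4608 normalized counts per kilobase in Abcg1 cKO and 4503 in the merged set, and the lowest Psmd11, at 613 in Abcg1 cKO and 536 in the merged set. The median over the 14 core genes was 2602 in Abcg1 cKO and 2577 in the merged set, and over the 17 regulatory genes 1661 in Abcg1 cKO and 1698 in the merged set. The assembly chaperones had a median of 368 in Abcg1 cKO and 384 in the merged set. These levels are per annotated transcript length and shift with the transcript model. The medians rest on the genes in the middle of each part and do not give the direction between the groups. Summed normalized counts, not per kilobase, went the other way. For the core genes they were 43731 in Abcg1 cKO and 44362 in the merged set, and for the regulatory genes 51324 in Abcg1 cKO and 48694 in the merged set.

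Core and regulatory genes differ in transcript length, with medians of 1162 bases in the core and 1785 in the regulatory particle. Over all genes with a mean of 1000 to 7000 and a known length, the median log2 ratio was 0.02 for transcripts of 1000 to 1500 bases and 0.04 for those of 1500 to 2000. Over the 31 constitutive 26S genes, which share their libraries, Spearman's rho of the log2 ratio with transcript length was 0.25, and with GC content 0.14. Over the 3732 genes of that level it was 0.02 with length and 0.03 with GC content. The part of transcript length in the difference between core and regulatory genes was not tested.

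**Figure D5:**
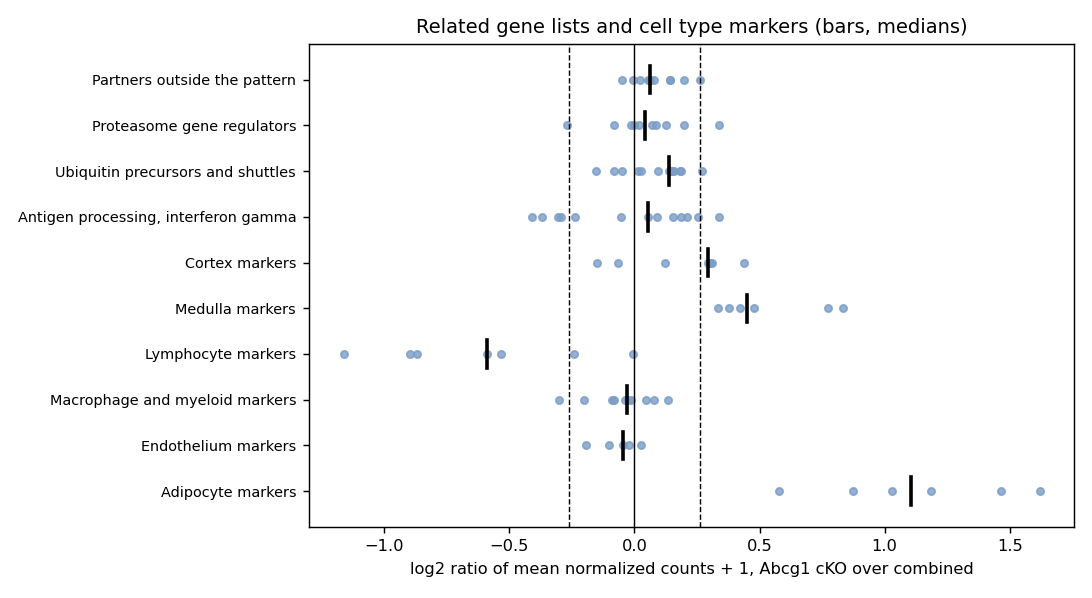
Log2 ratio of mean normalized counts (horizontal axis, Abcg1 cKO over the merged set) of each gene with a mean of 10 or more in lists around the proteasome and in cell type markers, with 1 point per gene, black bars for list medians and dashed lines at a fold of 1.2. Proteasome partners and ubiquitin genes have medians of 0.06 and 0.14 and lie within the fold except Ubqln1 at 0.27, while lymphocyte markers reach -1.16 and adipocyte markers 1.62.

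Of 11 measured partners of the proteasome outside the naming pattern, 9 had a higher mean in Abcg1 cKO. This stands beside 50.3% of all genes and 64.5% of genes with a mean of 1000 to 7000. None lay past the fold, beside 22.6% and 8.69%. Uchl5, Akirin2 and Zfand2a, all higher in Abcg1 cKO, have means below that level, so its shares match the other partners only. The median log2 ratio of the 11 was 0.06 (0.02 with equal totals), close to the 0.04 of genes with a mean of 1000 to 7000. Zfand5, which stimulates the 26S proteasome, stood highest at 0.26, and Sem1, a small lid subunit listed under an older symbol, lowest at -0.05. Pomp, the chaperone that completes the core, stood at 0.08 and Adrm1, a ubiquitin receptor of the base, at 0.06.

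Of 10 regulators of proteasome genes, 1 lay past the fold on the higher side, Nfe2l1, and 1 on the lower side, Nfyb. These counts are near the shares of all genes, 10.4% and 12.2%. Nfe2l1 had 13183 normalized counts in Abcg1 cKO and 10417 in the merged set (log2 ratio 0.34, percentile 92.9 of all genes with a mean of 10 or more). Nfe2l2, which encodes the related factor of oxidative stress, had 3094 in Abcg1 cKO and 3101 in the merged set (-0.0035). Nfyb, a subunit of the factor that binds CCAAT boxes, was past the fold on the lower side, at 398 in Abcg1 cKO and 480 in the merged set (-0.27). Ddi2, the protease that activates the Nfe2l1 product, stood at 0.09, and the list had a median of 0.04, which was -0.0009 with equal totals.

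Ubiquitin itself is made from precursor genes of different structure. Ubb, a polyubiquitin gene, had a log2 ratio of 0.15, while Rps27a, which encodes ubiquitin fused to a ribosomal protein, had -0.16. Rps27a had 9051 normalized counts in Abcg1 cKO and 10080 in the merged set. Of the 13 ubiquitin precursor and shuttle genes, 10 had a higher mean in Abcg1 cKO (median 0.14). This stands beside 50.3% of all genes and 64.5% of those with a mean of 1000 to 7000. On the higher side 1 lay past the fold, the shuttle gene Ubqln1 at 0.27, beside 10.4% of all genes. Ubqln1 was inside the fold with equal totals (0.22), leaving 0 past it. With equal totals 8 of the 13 were above 0, beside 5680 of all 14305 genes with a mean of 10 or more. Uba1, the activating enzyme that starts the ubiquitin cascade, and Vcp, the segregase that extracts substrates, stood at 0.14 and 0.18.

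Markers of other cell types of the gland differed in mean level too. All 6 medulla markers lay past the fold on the higher side, with a summed level of 176405 in Abcg1 cKO and 129603 in the merged set, and so did all 6 adipocyte markers, at 34062 in Abcg1 cKO and 14466 in the merged set. Of 7 cortex markers 4 lay past the fold on the higher side, beside 10.4% of all genes, with Star at 0.44, and 3 did not, among them Hsd3b1 at -0.15. With equal totals 2 of the 7 did, as Cyp11a1 and Cyp21a1 came inside it (0.25 and 0.26). Star alone reached 507891 normalized counts in Abcg1 cKO and 374521 in the merged set, as befits glands labelled adrenal. Endothelial markers, summed, stood at 9335 in Abcg1 cKO and 9838 in the merged set. The part of these cell types in the proteasome values was not tested.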

How the data were processed

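RNA of whole adrenal glands was sequenced in 12 libraries. The study's methods and the submitters' processing notes name bcl2fastq 2.20.0.422 for demultiplexing, cutadapt 4.0 for trimming, FastQC 0.11.9 for quality, STAR 2.7.10a for alignment to mm10, HTSeq 0.13.5 for counting of unique alignments and DESeq2 1.38.3 for normalization. The signal used here is the mean normalized count of each group as deposited by the authors. The authors' own fold changes and p-values of the comparison were not used. The table also has 12 columns of individual libraries. These were left out, since their names could not be tied to the labels. The design allowed for this case: ratios of group means, with no test.

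Log2 ratios (pseudocount 1), a minimum mean of 10 and a fold of 1.2 were applied in Python 3.11.15 with pandas 2.3.3, and the calculation was tested on simulated data. Transcript lengths and positions came from GENCODE for GRCm38 and matched all 50 members by symbol. The members and lists were chosen with earlier results of these data known. Named were the catalytic, inducible, activator and inhibitor genes, the highest and lowest gene of each part, members past the fold and IDs outside the complex, with up to 4 genes at each end of other lists. Psma3, Psma7, Psmb1, Psmb3, Psmb4, Psmd1, Psmd7, Psmd12, Psmd14 and some list genes were named in addition, after their values were seen. Alternatives were pseudocounts of 0.1 and 10, no filter or a minimum mean of 50, folds of 1.1 and 1.5, and centring on the median of all genes. Equal totals, centring on the median of genes with a mean of 1000 to 7000 and exon lengths were added after the data were seen. Results of some list genes are not reported here.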

Additional observations from a re-analysis of the deposited data

How the results depend on the processing

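Pseudocounts of 0.1 and 10 and centring on the median of all genes moved none of the proteasome genes named by the rule across 0 or across the fold of 1.2, and changed no count of proteasome genes. At a minimum mean of 50, Psma8 was left out, so 0 core alpha genes and 0 members in all were past the fold on the lower side. At a fold of 1.1, 5 members were past it on the higher side (1 core beta, 1 base ATPase, 1 base non-ATPase and 2 lid genes) and 3 on the lower side (Psma8, 1 inducible beta gene and 1 base chaperone), 8 of 49 beside 45.8% of all genes, a share not matched for level. At a fold of 1.5 only Psma8 remained past it. With equal totals, or with centring on genes with a mean of 1000 to 7000, 1 inducible beta gene, Psmb9, joined Psma8, giving 2 members on the lower side. Of the genes named by the rule, Psmb6, Psmb10, Psmd4 and Psme4 moved below 0 under both, as did the median of the lid. The lid genes Psmd6 and Psmd13 also moved below 0 with equal totals, at -0.03 and -0.0005. The lid median was -0.0159 with equal totals and -0.0144 with that centring, and the median of the regulators -0.0009 with equal totals. With no filter, 2629 genes were past the fold on the higher and 3587 on the lower side, against 1493 and 1745 at a minimum mean of 10 and 1034 on the lower side at a minimum of 50. With equal totals, Ubqln1, Cyp11a1 and Cyp21a1 came inside the fold and Gbp2 and Cd3g went past it on the lower side. The medians of the 20S and of the 19S genes kept their sign under every alternative run. No paired analysis was possible because the columns used are means of groups and carry no replicate number, and leaving out each library, a control-only comparison and a count model were not run, since the single-library columns are not tied to samples by their names. Depth per library is unknown, so no counting error is given.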
